A study of Mus musculus with 6 samples.

Results

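The genes followed here were Insr, Irs1, Irs2, Akt2, Foxo1, Tsc2, Gsk3a, Gsk3b, Adipor1 and Adipor2, taken by symbol as members of the insulin and adiponectin signalling pathways. Each of the 10 had a row of its own among the 29981 rows of a liver RNA-sequencing table, and 5 of them had a mean value of at least 10, the level needed to enter the test, as had 2750 rows in all. The livers came from C57BL/6 mice. In 3 samples (HSKO), Abca1, the transporter that loads cholesterol and phospholipid onto apolipoprotein A-I, was deleted with a Cre recombinase driven by the Albumin promoter, which is active in hepatocytes. The other 3 samples (WT) came from floxed controls that carry the label wildtype. All mice were fasted from morning to early afternoon before the livers were taken. The sources used here do not give the age or sex of the mice or the exons removed. No label ties a library to an animal of its own, and a p-value here reflects only how far these libraries differ, which may be technical.

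Insulin binds its receptor, a tyrosine kinase that phosphorylates the docking proteins Irs1 and Irs2. These recruit phosphoinositide 3-kinase and so activate Akt, of which Akt2 is the main form in liver. Akt inhibits the kinases Gsk3a and Gsk3b, which otherwise hold glycogen synthase inactive. It also inhibits Tsc2, a brake on mTOR signalling, and keeps the transcription factor Foxo1 out of the nucleus, where Foxo1 drives genes of glucose production. Adiponectin, a hormone of fat cells, acts on the liver through the receptors Adipor1 and Adipor2, which are linked to AMP-activated protein kinase and to PPARalpha.

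In the deposited table each library's reads had been divided by its size factor. Every value was a whole multiple of the value of 1 read, so the reads could be recovered. Libraries held 631020 to 933319 reads, of which 43.1% to 57.8% lay in a single row, BC071253. Together the 10 genes had 329 to 364 reads in a WT library and 196 to 281 in an HSKO library. A single read was worth 0.564 to 0.763 units in WT and 1.33 to 1.46 units in HSKO. Abca1 had 20 to 36 reads in WT and 1 to 2 in HSKO (limma adjusted p = 0.000862), so the libraries matched their labels. All 13 hepatocyte markers looked for were measured, and their summed share of reads was 1.61% to 2.83% in WT and 0.772% to 1.33% in HSKO. In deposited units their sums, 10968 to 13371 in WT and 7118 to 11421 in HSKO, overlapped. Summed markers of stellate cells (6 genes) lay at 30.5 to 36.2 units in WT against 10.2 to 20.4 in HSKO, those of endothelial cells (6 genes) at 27.0 to 33.3 against 8.72 to 29.2, and those of Kupffer cells (7 genes) at 35.1 to 81.6 against 23.4 to 59.8. Of 5 adipocyte markers, Adipoq, Plin1, Lep and Retn were at 0 in every library. In whole liver, a change in cell numbers and a change in marker RNA per cell cannot be told apart. The part of these marker levels in the results below was not tested.

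With the deposited scaling, the receptor genes Adipor2 and Insr were called lower in HSKO livers, and Tsc2 and Gsk3a higher. Of 7 ways of scaling the libraries, all called Adipor2 and Tsc2, 6 called Insr and 3 called Gsk3a. As ratios of group means, Adipor2 was 3.13 times and Insr 2.102 times lower, while Tsc2 was 2.78 times and Gsk3a 1.88 times higher. Adipor1, the other tested gene, did not pass the test. Thus 2 of 5 genes were called higher, where 28.5% of all tested rows were, and 2 of 5 lower, where 11.6% were (limma, adjusted p below 0.05). In either direction 40.1% of all tested rows were called, so a call is common in this table. These shares hold for the deposited scaling, and with total reads 221 tested rows were called higher and 1044 lower. Insr had an HSKO mean below the filter and entered the test through its WT libraries. For 4 of the 5 genes every HSKO library lay on 1 side of every WT library, which held for 51.5% of tested rows. With fold changes taken as HSKO minus WT of log2(value + 1), the median was 0.28 over the 5 genes and 0.07 over all tested rows.

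**Figure D1:**
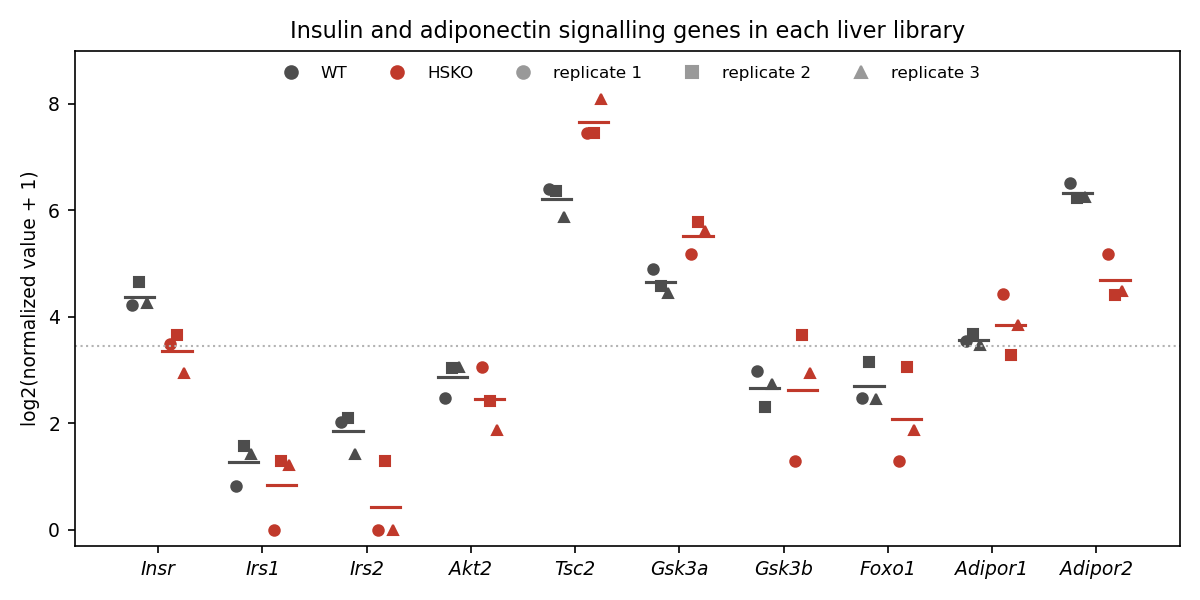
Each point is 1 library's log2(normalized value + 1) for the gene on the x axis, WT in grey and HSKO in red, with the symbol giving the replicate and the bar the mean of the plotted values. The dotted line marks a value of 10. The groups stand apart for Adipor2, Insr, Tsc2 and Gsk3a, while most points of Irs1, Irs2, Akt2, Gsk3b and Foxo1 lie below the line.

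Adipor2 encodes a multi-pass membrane receptor of the PAQR family and lies on the minus strand of chromosome 6, from 119353150 to 119417704 in mm10. Its values were 90.1, 74.4 and 75.6 in WT replicates 1 to 3 and 35.1, 20.4 and 21.3 in HSKO replicates 1 to 3. They rest on 118, 113 and 134 reads in WT and on 24, 14 and 16 in HSKO. The highest HSKO library lay below the lowest WT library. The group means were 80.0 ± 8.73 and 25.6 ± 8.25 (SD, n = 3 libraries each), and the log2 fold change was -1.65, with a standard error (SE) of 0.27 and a limma adjusted p of 0.000549. Only 0.582% of tested rows had a lower log2 fold change. Adipor2 was called lower with every one of 7 ways of scaling the libraries and in all 20 alternatives run, with an adjusted p of at most 0.00473. Its log2 fold change over the scalings lay between -2.30 (by total reads) and -1.34 (by hepatocyte markers).

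Adipor1, on the plus strand of chromosome 1 from 134415378 to 134433351, encodes the other adiponectin receptor. The WT libraries stood at 10.7, 11.8 and 10.2, the HSKO libraries at 20.5, 8.72 and 13.3, from 14, 18 and 18 reads and from 14, 6 and 10 reads. The WT libraries lay inside the range of the HSKO libraries. Group means were 10.9 ± 0.866 for WT and 14.2 ± 5.92 for HSKO (SD, n = 3), and the gene did not pass (log2 fold change 0.28, SE 0.37, limma adjusted p = 0.565). The ratio of pooled reads per size factor, HSKO over WT, was 1.30, and counting error alone allowed 0.798 to 2.09 (exact 95% interval). Its direction was not settled, since scaling by total reads gave a log2 fold change of -0.34 and scaling by hepatocyte markers one of 0.57.

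A ratio of both receptors inside a library is not changed by dividing the library by any size factor, though quantile normalization can change it. Adipor2 exceeded Adipor1 by 8.43, 6.28 and 7.44 times in the WT libraries and by 1.71, 2.33 and 1.6 times in the HSKO libraries. The lowest WT ratio was above the highest HSKO ratio, and the mean ratio was 3.95 times lower in HSKO (difference of -1.98 in mean log2 ratio). The two-sided exact permutation p was 0.1, the smallest that 3 against 3 libraries can give, and 0.3 after adjustment over the 3 ratios computed. The balance of the receptor transcripts thus differed between the groups by more than the spread within them, in 3 of 3 libraries on each side.

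**Figure D2:**
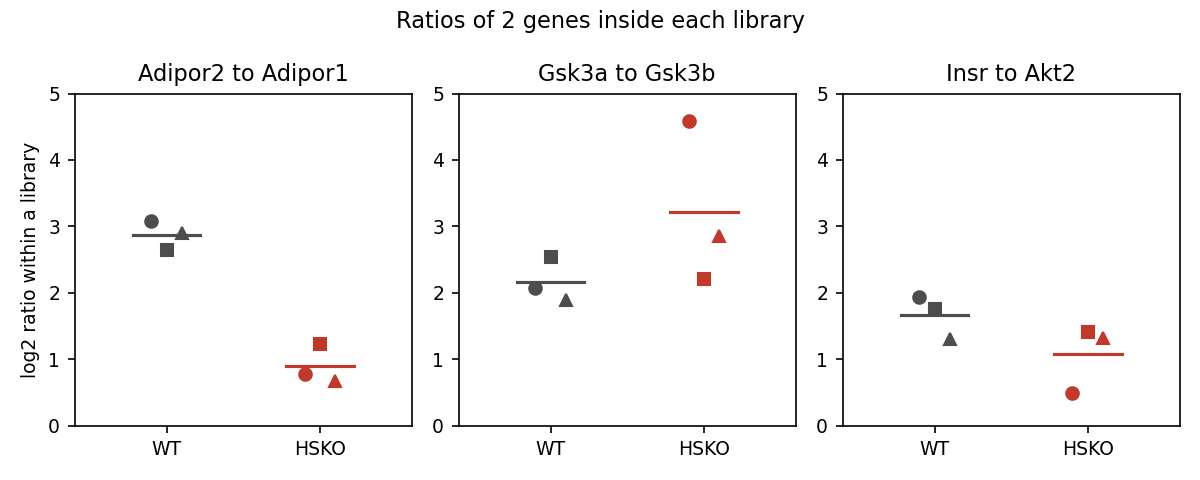
Each panel gives the log2 ratio of 2 genes inside each library, with points for replicates 1 (circle), 2 (square) and 3 (triangle) and a bar for the group mean. The ratio of Adipor2 to Adipor1 separates the groups, while those of Gsk3a to Gsk3b and of Insr to Akt2 overlap.

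The upstream sequences of both receptor genes are shown because Adipor2 was called lower and Adipor1 was not called. They are the 250 bases before a RefSeq start, 5′ to 3′ on the gene's strand, in GRCm38.p6 (the mm10 assembly). Capitals mark letters of the motifs searched, each on both strands. One is the core bound by forkhead factors such as Foxo1, GTAAACA. A second kind, the cAMP response element, was searched as TGACGTCA, and the sterol element of cholesterol-sensing factors as TCACNCCAC. The E-box known from basic helix-loop-helix factors was taken as CACGTG. Promoters without a TATA box often carry the GC box, here GGGCGG. Also searched were the CCAAT box, by those letters, and the core of ETS factors with the letters CCGGAAG. Adipor2 lies at chr6:119388735-119388984 on the minus strand and Adipor1 at chr1:134415128-134415377 on the plus strand. The Adipor2 stretch lies inside the annotated span of the gene, before an internal start. Bases before the 5′ end of that span, at 119417704, were not searched. The Adipor1 stretch ends where its span begins, at 134415378.
Adipor2: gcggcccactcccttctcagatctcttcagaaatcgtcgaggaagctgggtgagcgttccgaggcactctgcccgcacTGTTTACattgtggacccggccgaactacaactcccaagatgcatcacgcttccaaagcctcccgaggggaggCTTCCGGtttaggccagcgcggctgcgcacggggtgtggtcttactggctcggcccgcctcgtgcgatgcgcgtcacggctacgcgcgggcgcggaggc
Adipor1: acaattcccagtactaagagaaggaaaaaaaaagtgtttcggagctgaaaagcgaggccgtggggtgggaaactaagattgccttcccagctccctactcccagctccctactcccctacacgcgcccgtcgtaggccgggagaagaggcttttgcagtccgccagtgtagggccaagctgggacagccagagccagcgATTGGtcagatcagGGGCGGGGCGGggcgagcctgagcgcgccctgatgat

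The Adipor2 stretch held 1 forkhead core, read as its reverse complement, and 1 ETS core. Forkhead cores were in 3.17% and ETS cores in 6.91% of all 32851 RefSeq windows of this length. The Adipor1 stretch held 2 overlapping GC boxes and 1 CCAAT box, motifs found in 32.7% and 33.8% of windows, and no forkhead core. G and C made up 64.8% of the Adipor2 stretch and 59.6% of the Adipor1 stretch. A second RefSeq start of Adipor1 had no forkhead core either. Of the 9 genes with a RefSeq window, Adipor2 was the one with a forkhead core, in a stretch that lies inside its gene span. These matches describe letters and not binding.

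The insulin receptor gene Insr lies on the minus strand of chromosome 8, from 3122061 to 3279617. It measured 17.6, 24.3 and 18.0 in the WT libraries against 10.2, 11.6 and 6.65 in the HSKO libraries, from 23, 37 and 32 reads and from 7, 8 and 5 reads. All HSKO libraries lay below all WT libraries. The log2 fold change was -1.02 (SE 0.34, limma adjusted p = 0.0238), and the pooled reads per size factor were 2.12 times lower in HSKO, with a counting interval of 1.30 to 3.64. Insr was not called without WT replicate 2 (adjusted p = 0.133), WT replicate 3 (0.0612) or HSKO replicate 3 (0.0656), with no filter in limma (0.0814) or DESeq2 (0.122), or where libraries were scaled to hepatocyte markers (0.164, log2 fold change -0.72). In all 7 scalings its log2 fold change was below 0, and 6 of the 7 called it.

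The docking proteins were nearly unread at this depth. Irs2, the docking protein whose gene Foxo1 and fasting are known to raise in liver, had 4, 5 and 3 reads in WT and 0, 1 and 0 in HSKO. As values these are 3.05, 3.29 and 1.69 for WT, against 0, 1.45 and 0 for HSKO livers. The highest HSKO library lay just below the lowest WT library. Pooled over libraries, the level was 5.54 times lower in HSKO, with a counting interval of 0.819 to 237 that includes 1. On unfiltered rows limma gave it an adjusted p of 0.214. Irs1 had 1, 3 and 3 reads in WT and 0, 1 and 1 in HSKO, and no difference was detectable at that depth. Overlapping Irs2 on the other strand, 9530052E02Rik had at most 2 reads in a library.

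Akt2, the kinase that relays the signal, had values of 4.58, 7.24 and 7.33 in WT and 7.31, 4.36 and 2.66 in HSKO. The groups overlapped, with 30 pooled reads in WT and 10 in HSKO. Foxo1 had values of 4.58, 7.90 and 4.51 in WT and 1.46, 7.27 and 2.66 in HSKO, and HSKO replicate 2 alone lay inside the WT range. Both were below the filter, and their counting intervals for HSKO over WT, 0.315 to 1.52 for Akt2 and 0.261 to 1.52 for Foxo1, included 1. Of the 5 genes below the filter, limma without the filter called 0, where 6.05% of 13807 rows were called, with 1 at an unadjusted p below 0.05, which was Irs2. On the same rows edgeR called 0 as well, also before adjustment, and DESeq2 gave none of the 5 an adjusted p.

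Tsc2 encodes tuberin, which with hamartin (Tsc1) forms the complex that holds Rheb and so mTOR complex signalling back. It lies on the minus strand of chromosome 17, from 24595816 to 24632630. WT libraries read 83.9, 81.6 and 58.1, HSKO libraries 175, 174 and 271, and every HSKO library was above every WT library. The means were 74.5 ± 14.3 and 207 ± 55.6 (SD, n = 3), a log2 fold change of 1.45 with SE 0.26 and limma adjusted p = 0.000710. Unscaled reads were closer, at 110, 124 and 103 in WT and 120, 120 and 204 in HSKO. Of all tested rows, 95.9% had a lower log2 fold change. Tsc2 was called higher in all 7 scalings and all 20 alternatives run, and its log2 fold change lay between 0.78 for scaling by total reads (adjusted p = 0.0172) and 1.76 for scaling by hepatocyte markers.

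The partner gene Tsc1, named here after its values were seen, had 6, 6 and 9 reads in WT and 0, 1 and 0 in HSKO. Its pooled level was 9.69 times lower in HSKO, with a counting interval of 1.56 to 401. Tsc1 was below the filter. On unfiltered rows its adjusted p was 0.0548 in limma and 0.0379 in edgeR, and DESeq2 gave none. The exons of Pkd1 on the opposite strand overlap those of Tsc2. Its WT mean was 7.10 ± 2.97 and its HSKO mean 13.6 ± 1.67 (SD, n = 3, limma adjusted p = 0.0888), far below Tsc2 in reads. The part of opposite-strand reads in the Tsc2 value was not tested.

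Gsk3a encodes one of the kinases that phosphorylate and inactivate glycogen synthase, and lies on the minus strand of chromosome 7, from 25228258 to 25237851. WT libraries gave 29.0, 23.0 and 20.9, HSKO libraries 35.1, 53.8 and 47.9. The groups did not overlap. The means were 24.3 ± 4.21 and 45.6 ± 9.57 (SD, n = 3), a log2 fold change of 0.87 with SE 0.27 and limma adjusted p = 0.0163. Before scaling the reads hardly differed, at 38, 35 and 37 in WT and 24, 37 and 36 in HSKO. The call was made in 3 of the 7 scalings. Scaling by the upper quartile (adjusted p = 0.0752), by quantiles (0.0528), by total reads (0.536) or by total reads without BC071253 (0.226) did not make it. DESeq2 did not make it (0.0738), nor did limma (0.0590) or edgeR (0.0745) on unfiltered rows. Leaving out WT replicate 2 (0.0598), WT replicate 3 (0.0608) or HSKO replicate 2 (0.0716) also ended it.

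An antisense transcript, 9130221H12Rik, overlaps exons of Gsk3a and had 264 to 301 reads in a WT library and 237 to 308 in an HSKO library. Its mean went up by 1.09 on the log2 scale, from 185 ± 25.2 to 394.5 ± 42.6 (SD, n = 3, limma adjusted p = 0.00138). The kit marks strand, but the sources used here do not state the strand setting of the counting, so reads of the antisense transcript could have been counted for Gsk3a. The part of these reads in the Gsk3a value was not tested.

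Gsk3b, the paralog on chromosome 16 from 38089001 to 38246084, was at 6.87, 3.95 and 5.64 in WT and at 1.46, 11.6 and 6.65 in HSKO. Its HSKO libraries spanned the WT range, and the counting interval of HSKO over WT was 0.583 to 2.43. Gsk3a exceeded Gsk3b by 4.22, 5.83 and 3.70 times in WT libraries and by 24.0, 4.63 and 7.20 times in HSKO libraries. The groups overlapped (exact permutation p = 0.2), and HSKO replicate 1, with 1 Gsk3b read, set much of the difference, which fell from 1.04 to 0.36 in mean log2 ratio without it. For Insr to Akt2 the ratio was 3.83, 3.36 and 2.46 in WT and 1.40, 2.67 and 2.50 in HSKO, which overlapped as well (exact permutation p = 0.3). Without HSKO replicate 1 that difference was -0.29 in place of -0.59.

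The upstream stretch of Gsk3a, called higher with the deposited scaling, is given in the same form. Its paralog Gsk3b was below the filter and was not tested. It lies at chr7:25237852-25238101 on the minus strand and holds 1 GC box and 1 CCAAT box in capitals. In the stretch of Tsc2 the one match was an ETS core, which Adipor2 and the second start of Adipor1 also had. The stretches of Tsc2 and Gsk3a thus shared no motif of the list.
Gsk3a: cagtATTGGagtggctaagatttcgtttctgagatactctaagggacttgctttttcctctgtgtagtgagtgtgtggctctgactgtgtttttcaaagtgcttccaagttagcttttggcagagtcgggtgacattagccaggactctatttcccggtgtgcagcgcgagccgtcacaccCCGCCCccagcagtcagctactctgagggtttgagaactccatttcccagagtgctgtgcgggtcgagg

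**Figure D3:**
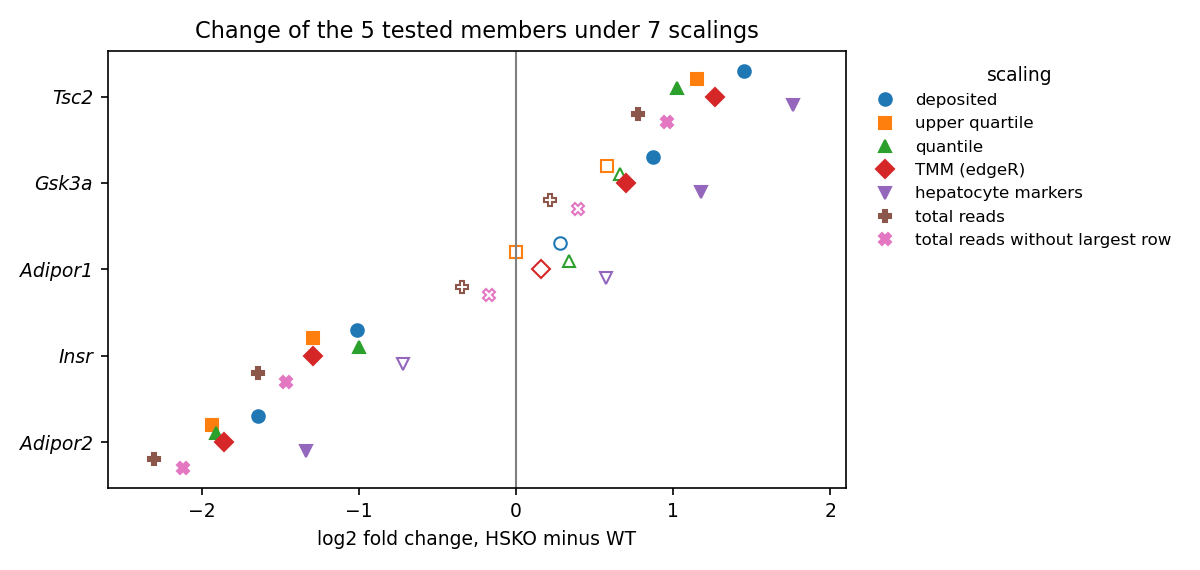
Each symbol gives the log2 fold change, HSKO minus WT, of a tested gene under 1 of 7 scalings, filled where the adjusted p was below 0.05. Tsc2 stays to the right of 0 and Adipor2 to the left with every symbol filled, Gsk3a and Insr lose the call under some scalings, and Adipor1 lies on both sides of 0.

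Levels of different genes are compared here only per kilobase of annotated exon (GENCODE M21). In WT livers the order of levels per kilobase was Adipor2 at 13.4 ± 1.46, Gsk3a at 8.38 ± 1.45, Tsc2 at 7.75 ± 1.49, Adipor1 at 2.17 ± 0.172 and Insr at 1.45 ± 0.276 (SD, n = 3). Akt2, Foxo1, Gsk3b, Irs2 and Irs1 followed, from 0.895 down to 0.161. Gsk3a and Tsc2 were not separated by their libraries, nor were Akt2 and Foxo1, Foxo1 and Gsk3b, or Gsk3b and Irs2. In HSKO livers Tsc2 at 21.5 ± 5.78 and Gsk3a at 15.7 ± 3.30 stood first, with overlapping libraries, and Adipor2 at 4.28 ± 1.38 came next, overlapping Adipor1 at 2.82 ± 1.18. Insr at 0.691 ± 0.187 overlapped Akt2, and Akt2 overlapped Gsk3b. Per kilobase, Adipor2 thus stood first in WT and behind Tsc2 and Gsk3a in HSKO.

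For the 3 genes with the highest mean, the rows with the most similar profile were found from log2 values centred on each row's mean over the 6 libraries. Nearest to Adipor2 were Slc2a2, the hepatic glucose transporter gene, at a root mean square difference of 0.203, Acly, which makes cytosolic acetyl-CoA, at 0.206, and Gpr146 at 0.229, where the median row was at 0.961. Slc2a2 went from 33.5 ± 3.73 in WT to 11.4 ± 2.85 in HSKO (SD, n = 3). Nearest to Tsc2 were Atg4d, an autophagy protease gene, at 0.0793, Ccdc24 at 0.0793 and Mat2a, a methionine adenosyltransferase gene, at 0.0813, with the median row at 0.811. Nearest to Gsk3a were Bad, a cell death gene, at 0.0902, Ankrd42 at 0.102 and Cept1, a phospholipid synthesis gene, at 0.102, with the median row at 0.588. These are descriptions over 6 libraries.

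Most other genes of the pathway were too shallow to test. Of 100 genes on 8 lists of partners, brakes and targets, 99 had a row and 26 passed the filter. The medians of log2 fold change given below for each list stand beside the 0.07 of all tested rows. The counts called in each list stand beside 28.5% of all tested rows called higher and 11.6% called lower. In the proximal insulin cascade, 1 of 4 tested genes was higher and 0 lower, with a median of -0.37. Gab1, a docking protein of receptor tyrosine kinases, rose from 21.8 ± 8.24 to 50.6 ± 11.2 (limma adjusted p = 0.00360), but was not called with scaling to total reads (0.136). Pik3r1, the regulatory subunit of phosphoinositide 3-kinase, was at 14.3 ± 4.79 in WT and 6.64 ± 1.87 in HSKO (adjusted p = 0.0659), and Ceacam1, which promotes insulin clearance, at 38.9 ± 7.01 and 26.9 ± 2.67 (0.135). Both were called lower in some scalings, 4 and 5 of the 7.

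Among the brakes of the insulin signal, limma called 0 of 2 tested genes (median -0.35), and 1 of them, Ptprf, had an unadjusted p below 0.05. Ptprf, a receptor tyrosine phosphatase, had a mean of 27.9 ± 7.11 in WT against 16.7 ± 7.26 in HSKO livers (SD, n = 3, limma adjusted p = 0.0707). On these genes edgeR called 1, Ptprf, as lower, and DESeq2 called 0. The phosphatase subunit Ppp2ca was at 34.1 ± 7.48 and 36.1 ± 10.8 (adjusted p = 0.880), and its log2 fold change took either sign over the scalings.

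In the mTOR branch Deptor, an inhibitor of mTOR, was the one tested gene of 14 and fell from 39.1 ± 4.91 to 20.1 ± 3.39 (SD, n = 3, limma adjusted p = 0.0105). The change was -0.93 on the log2 scale, and the call was lost with scaling to hepatocyte markers (0.107), without WT replicate 2 (0.0636) and in DESeq2 on unfiltered rows (0.0550). Among substrates of Akt and GSK3, 1 of 3 tested genes was higher and 0 lower, with a median of -0.16. That gene, Bad, rose from 18.4 ± 3.995 to 35.6 ± 5.65 (adjusted p = 0.0135) and was called in 4 of the 7 scalings, but not without WT replicate 2 (0.0517) or WT replicate 3 (0.0598). Gys2, liver glycogen synthase, was at 39.2 ± 10.3 and 34.6 ± 6.89 (adjusted p = 0.669) and Ctnnb1, beta-catenin, at 17.9 ± 6.03 and 15.6 ± 4.20 (0.701).

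In the adiponectin and AMP-activated kinase branch, 1 of 3 tested genes was lower and 0 higher, with a median of 0.11. Ppara, the nuclear receptor through which Adipor2 is known to act, fell by 1.12 on the log2 scale, from a mean of 42.3 ± 2.72 to one of 19.6 ± 6.28 (SD, n = 3, limma adjusted p = 0.00429), and was called lower in all 7 scalings. The WT libraries held 52, 64 and 80 of its reads, the HSKO libraries 12, 10 and 20. Stk11, the kinase upstream of AMP-activated kinase, was at 12.6 ± 1.65 and 14.2 ± 5.49 (adjusted p = 0.819), and its partner Cab39 at 18.8 ± 3.51 and 23.6 ± 2.40 (0.372). Adipoq, the hormone's own gene, had 0 reads in all 6 libraries, and the receptor-binding adaptor Appl1 had 3, 6 and 6 reads in WT and 1, 0 and 2 in HSKO.

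Of 9 other genes of the PAQR receptor family, 2 were tested, 1 lower and 1 higher, with a median of -0.57. Paqr9 fell by 1.90 on the log2 scale, from a mean of 19.7 ± 1.66 to one of 4.69 ± 1.55 (SD, n = 3, limma adjusted p = 0.00153), and was called in all 7 scalings. The WT libraries held 28, 30 and 32 of its reads and the HSKO libraries 2, 4 and 4. Its HSKO mean was below the filter of 10, so Paqr9 entered the test through its WT libraries. Paqr3 rose from 35.5 ± 4.85 to 61.6 ± 11.9 (adjusted p = 0.0246) and was called in 2 of the 7 scalings. It was not called without WT replicate 3 (0.0808), HSKO replicate 1 (0.0761) or HSKO replicate 2 (0.0893).

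Genes that insulin or Foxo1 act on were taken as separate lists. Of 4 tested genes that Foxo1 is known to raise, Pck1 was called higher and Mttp lower, while Apoc3 and G6pc did not pass, and the median was -0.22. Pck1 was called in 2 of the 7 scalings, and not without WT replicate 2 (adjusted p = 0.0742) or HSKO replicate 2 (0.0866). Mttp was called in 6 of the 7, and not without WT replicate 3 (0.138) or HSKO replicate 2 (0.144), while Apoc3 was called lower in 5 of the 7. With the upper quartile, quantiles, TMM, total reads, or total reads without BC071253, 0 genes of this list were higher and 2 lower. In the same settings 502 to 1044 of all 2750 tested rows were called lower and 221 to 684 higher. Of 7 tested genes that insulin is known to raise in liver, 5 were lower and 0 higher, with a median log2 fold change of -1.41, where 11.6% of all tested rows were lower. Over the scalings 4 to 7 of them were called lower, while the rows called lower in all went from 75 to 1044. The smallest adjusted p in that list belonged to Fasn, Acly and Scd1, between 0.00165 and 0.00369, each called lower in all 7 scalings, although the groups overlapped for Scd1. Fasn, Acly and Me1, all called lower, had HSKO means of 7.48, 9.51 and 5.30. These lie below the filter of 10, so these genes entered the test through their WT libraries. Both lists were drawn up with earlier results of these libraries known, so their direction is not independent evidence.

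**Figure D4:**
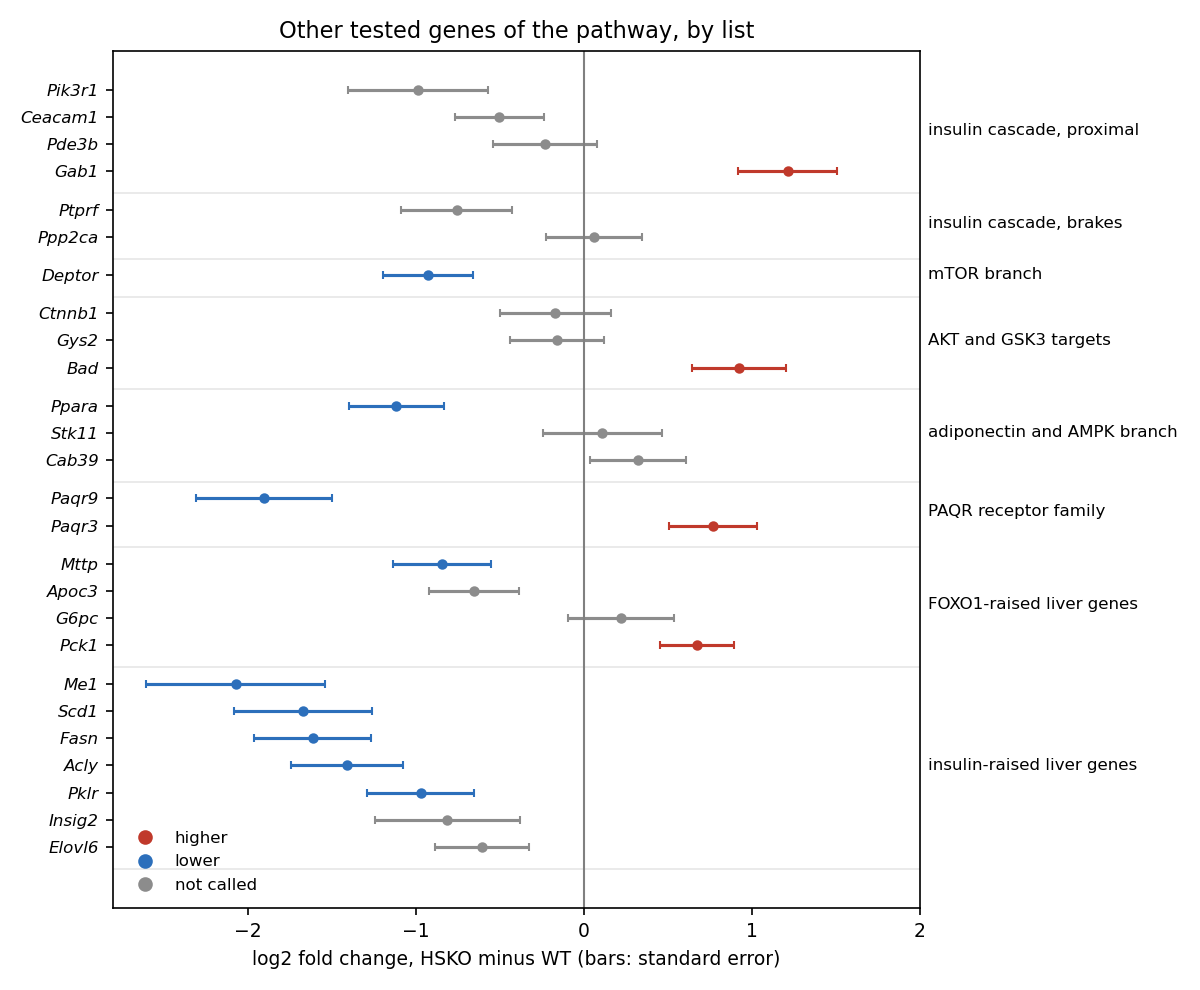
Points are log2 fold changes, HSKO minus WT, of the 26 tested pathway genes outside the 10, with bars for the standard error, grouped by list and coloured red for called higher, blue for called lower and grey for neither. The genes listed as insulin-raised, among them the wrongly listed Insig2, all lie left of 0, while most other lists hold genes on both sides.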

How the data were processed

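Mouse liver RNA in 6 libraries, 3 WT and 3 HSKO, was sequenced from both ends after a stranded mRNA library preparation, per the labels' protocols. The deposited table holds a normalized signal per gene, in which each library's reads had been divided by its size factor. Tools listed in the submitters' processing notes are RSEM 1.2.9, Bowtie, DESeq 1.16.0 and FastQC 0.11.3, with mm10 as the genome build. Of all values, 100% were whole multiples of the value of 1 read within a tolerance of 0.001, so reads were recovered from the deposited signal. Libraries held 631020 to 933319 reads, and intervals at 95% (exact, conditional on the pooled reads) cover counting error only.

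Rows with a mean value of at least 10 over the 6 libraries were tested with limma 3.58.1 (R 4.3.3, trended variance) on log2(value + 1), two-sided, with Benjamini-Hochberg adjustment over all 2750 rows and a threshold of 0.05. The count tests edgeR 4.0.16 (quasi-likelihood) and DESeq2 1.42.0 were run on the recovered reads, and called 1285 and 909 rows. Other alternatives changed the scaling, pseudocount, filter and libraries. The 7 scalings are the deposited one, upper quartile, quantile, 13 hepatocyte markers, total reads, total reads without the largest row, and TMM in edgeR. Scaling to total reads without the largest row and both count tests without the filter were chosen after seeing the data. Ratios inside a library were compared by a two-sided exact permutation test. Simulated data for this comparison held 2750 genes. Of 100 set to differ 2-fold limma found 42, and of 100 set to differ 4-fold it found 93. Among 138 calls made there, 3 were wrong. That share is no estimate of the error in the libraries, where 1103 of 2750 rows were called. How the scaling, which moved the balance of calls, affects false calls cannot be read from it.

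The members and the gene lists were chosen with earlier results of these data known. The text names all 10 genes, the 3 tested genes with the smallest p of each list, Adipoq, and the 3 rows most like each of the 3 genes with the highest mean. G6pc, Tsc1, Appl1, Me1, Ide, Paqr7, Ppargc1a and genes overlapping a member were named after their values were seen. Some genes of the lists are not reported here and were left out of the counts and medians. The motifs searched were also chosen after the data were seen. Same-numbered libraries did not deviate together (correlations of -0.026, -0.027 and -0.021), so numbers were not taken as pairs. Coordinates and exon lengths come from GENCODE M21 on mm10, and upstream sequences from RefSeq on GRCm38.p6, which held 13 windows for 9 of the 10 genes and none for Insr.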

Additional observations from a re-analysis of the deposited data

How the results depend on the processing

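Adipor2 and Tsc2 were called in all 20 alternatives. The number of rows called was 1103 of 2750, and 509 of the 688 rows tested where a mean of 50 was required. It lay between 738 and 1135 when a library was left out, and the number of the 10 genes called, 4, then lay between 2 and 4. That number was 2 with no filter, where 835 of 13807 rows (6.05%) were called. It was also 2 at a minimum mean of 50, where 2 of the genes were tested and 509 of 688 rows were called. The balance of calls moved with the scaling, and in edgeR and DESeq2 the test differed as well: rows called higher and lower were 783 and 320 as deposited, 580 and 703 with the upper quartile, 595 and 502 with quantiles, 684 and 601 with TMM in edgeR, 584 and 325 in DESeq2, 919 and 75 with hepatocyte markers, 221 and 1044 with total reads, and 429 and 913 with total reads without the largest row. Relative to the deposited scaling, the median of all rows moved by -0.28 (upper quartile), -0.20 (TMM), -0.13 (DESeq2), 0.30 (hepatocyte markers), -0.64 (total reads) and -0.47 (total reads without the largest row) on the log2 scale.

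Some log2 fold changes took the opposite sign, all but that of Pck1 for genes without a call, and the cause was not tested. With total reads they were -0.34 for Adipor1, -0.60 for Ppp2ca, -0.32 for Cab39, -0.52 for Stk11 and -0.00027 for Pck1, and with total reads without the largest row -0.17 for Adipor1, -0.42 for Ppp2ca, -0.15 for Cab39 and -0.34 for Stk11. With the upper quartile Ppp2ca was at -0.23 and Stk11 at -0.17, with TMM at -0.13 and -0.054. Ppp2ca was at -0.17 with quantiles, -0.065 in DESeq2 and -0.026 in edgeR with no filter. With hepatocyte markers Gys2 was at 0.15 and Ctnnb1 at 0.13. Without WT replicate 2 Ppp2ca was at -0.01, and without WT replicate 3 Ppp2ca was at -0.04 and Ctnnb1 at 0.079, where the lowest value of Ctnnb1 with a library left out was -0.37. Without HSKO replicate 1 Adipor1 was at -0.0099, Ppp2ca at -0.14 and Stk11 at -0.17. With a library left out, the other end of the range was 0.56 for Adipor1 and 0.29 for Ppp2ca.

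With the replicate number as a block, 1020 rows were called, 751 higher and 269 lower, with 4 of the 10 genes among them. The numbers were not shown to pair the libraries. The blocked exact p of the ratios was 0.25 for Adipor2 to Adipor1 (the smallest it can be), 0.5 for Gsk3a to Gsk3b and 0.5 for Insr to Akt2. Depth limits Irs1, Irs2, Akt2, Foxo1 and Gsk3b, each with at most 13 reads in a library.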

Other observations

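Ide, the insulin-degrading enzyme gene, and Paqr7, a progestin receptor gene of the PAQR family, were below the filter and were picked out after their values were seen. Ide had 13, 30 and 28 reads in WT and 3, 1 and 4 in HSKO, a pooled level 4.09 times lower in HSKO, with an exact 95% counting interval of 1.97 to 9.85. Paqr7 had 12, 11 and 12 reads in WT and 1, 1 and 4 in HSKO, a pooled level 2.69 times lower, with an interval of 1.12 to 7.83. On unfiltered rows the adjusted p of Ide was 0.00933 in limma and 0.00141 in edgeR, and that of Paqr7 was 0.130 and 0.131, while DESeq2 gave neither one. Ppargc1a, of the adiponectin list and also below the filter, went the other way. It had 0, 1 and 1 reads in WT and 2, 1 and 3 in HSKO, a pooled level of WT over HSKO of 0.154 (interval 0.0152 to 0.860). Among genes with at least 10 reads in all, the mean was lower in HSKO for 5 of 9 of the members, for 48 of 70 list genes (68.6%) and for 5033 of 8583 rows (58.6%). Nthl1, which lies next to Tsc2 on the other strand, had 1, 3 and 1 reads in WT and 0, 0 and 2 in HSKO.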
